A study of Rattus norvegicus with 24 samples.

Results

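In the infarct region of the rat heart, 217 of 32883 measured genes had a higher mean level after myocardial infarction than in operated controls, and a lower one with either of 2 patches on the infarct. They were chosen by group means of CPM, the read count of a gene scaled to the total count of its library. A member had at least 2 CPM in infarcted hearts without a patch and at least 2 times the Sham mean, and both patch means were at most the infarct mean divided by 1.5. Of the 228 genes that met these limits, 3 with at most 3 counts over all Sham libraries and 8 among the 100 highest in the infarct were left out. The limits were open to 12629 genes that had at least 2 CPM in MI, more than 3 Sham counts and a place outside the 100 highest. The MI libraries enter every limit, so the levels of the members in the 4 groups describe the choice and test nothing.

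Bulk RNA of the left ventricle was sequenced from the outbred rat strain Sprague Dawley, 7 days after surgery, from the region of the infarct. There were 6 libraries in each of 4 groups: Sham, the operated control; MI, the untreated infarct; Sutured patch, an infarct covered by a stitched patch; and Microneedle patch, an infarct whose patch holds by its own microneedles. The labels do not give the material of the patches, the age or sex of the rats, the part of the ventricle taken from Sham hearts, or whether each library came from its own rat, and the p-values therefore reflect only how far these libraries spread, which may be technical. The study's title puts the microneedle fixation at its centre. The comparison of the patches asks whether these genes differ between the sutured and the microneedle group. Since the labels do not give the patch material, a difference could not be assigned to fixation alone.

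A myocardial infarct heals in overlapping phases. Dying muscle is first cleared by invading neutrophils and macrophages, and fibroblasts then divide, turn into contractile myofibroblasts and lay down a collagen scar while new vessels grow in. Around the end of the first week the rat infarct is passing from the inflammatory to the scar-forming phase, so genes raised in such tissue can belong to invading cells, to scar-forming cells or to stressed muscle. The deposited table names genes by Ensembl ID alone, and 0 of its IDs matched the gene table used here, so the members' functions are not described and the tissue label was not checked against marker genes.

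Library totals ran from 5443782 to 14552623 counts, and each Sham library was shallower than each library of the other groups. A count of 3, the floor used here, equals 0.206 to 0.239 CPM in the libraries with an infarct and 0.255 to 0.551 CPM in Sham. Sham replicates 4 and 5 had the fewest genes with a count, 14079 and 13635. In the patch groups the lowest number was 16359, in sutured patch replicate 2.

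The members together made up 0.341% ± 0.1001 of all counts in the Sham libraries and 1.41% ± 0.121 in the MI libraries (SD, n = 6 each). Their share was 0.757% ± 0.174 under the sutured and 0.756% ± 0.229 under the microneedle patch. Summed over the members, the Sham libraries had 2308, 3043 and 4789 CPM (lowest, median and highest) and the MI libraries 12454, 14524 and 15541 CPM. The sutured patch libraries had 5681, 7201 and 10228 CPM, and the microneedle patch libraries 4362, 8209 and 10106 CPM. No patch library reached the lowest MI library, and 1 patch library, microneedle patch replicate 2, fell within the Sham range. The spread was wide inside the patch groups: microneedle patch replicates 2 and 6 had 4362 and 5184 CPM, whereas replicate 5 had 10106 CPM. In bulk tissue, fewer cells of a type and less RNA per cell cannot be told apart.

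**Figure D1:**
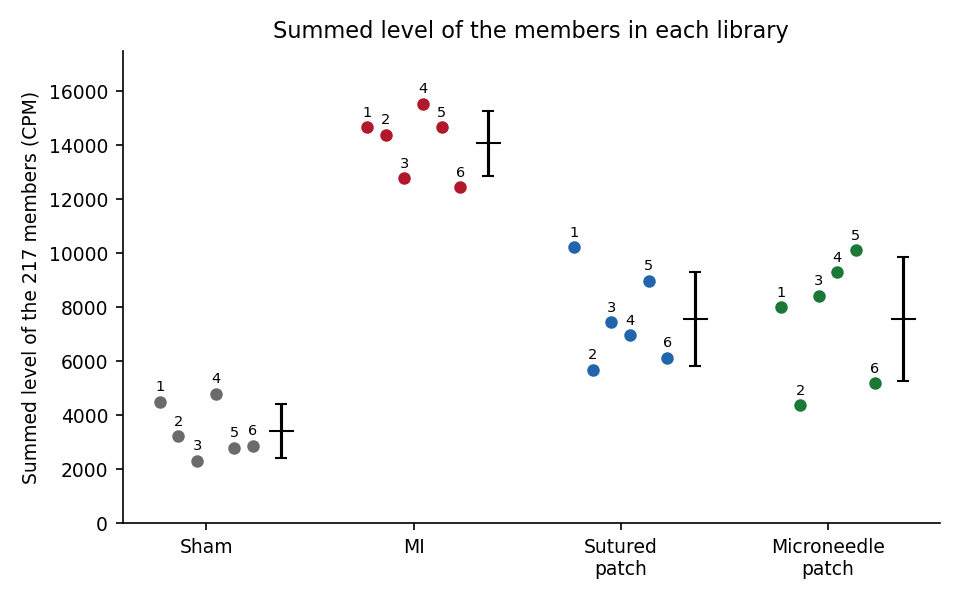
Summed CPM of the 217 members (y axis) in each of the 24 libraries, by group (x axis). Numbers are replicates; the bar to the right of each group is the mean with its SD (n = 6). All MI libraries lie at 12454 CPM or more, all patch libraries between 4362 and 10228 CPM.

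Among the members the mean level in MI had a median of 14.6 CPM and a range from 2.01 to 851 CPM; 85 members were below 10 CPM, 92 between 10 and 100 CPM and 40 at 100 CPM or more. CPM is not corrected for gene length, so it ranks genes by reads and not by transcripts. The ratio of the MI to the Sham mean had a median of 3.55, with 98 members at 4 or more and 32 at 10 or more. With the sutured patch the median member stood at a ratio of 0.517 to its MI mean and with the microneedle patch at 0.511. Both patch means were at most the MI mean divided by 2 in 62 members, and at most the MI mean divided by 3 in 12.

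For most members the level with a patch lay between the Sham and MI means. Both patch means were above the Sham mean in 177 members, at least 2 times the Sham mean in 84, and below it in 12. The part of the rise over Sham that was left had a median of 31.7% with the sutured patch (quartiles 18.7% and 42.7%) and of 31.4% with the microneedle patch (quartiles 15.3% and 44.0%). These shares follow in part from the limits of the choice.

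Of the members, 213 passed the filter on low counts and entered the edgeR quasi-likelihood test of 14540 genes, in which a gene was called at a Benjamini-Hochberg adjusted p below 0.05. The other 4 had MI means of 2.08 to 4.20 CPM, and a single library held 50.3% to 76.7% of their summed MI level. Against Sham, 77 of the 213 were called higher under the sutured patch (24.1% of all genes tested) and 83 under the microneedle patch (25.9%). Only 1 member was called lower than Sham under the sutured patch (23.8%), which makes 78 in either direction (48%), and 0 were under the microneedle patch (25.7%). Both patches were called higher than Sham in 74 members (21.4% of all genes tested), and neither differed from Sham by the test in 126 (42.5%). The median log2 fold change of the tested members against Sham was 0.79 with the sutured and 0.82 with the microneedle patch, beside -0.03 and -0.01 over all genes tested. Every sutured patch library was above every Sham library in 32 members (14.2% of all genes tested), and every microneedle patch library in 35 (14.9%). Both comparisons involve group means that the choice had bounded, and the patch groups share the Sham libraries.

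In the comparisons that chose them, 176 of the 213 were called higher in MI than in Sham (21.6% of all genes tested), 50 were called lower with the sutured patch than in MI (1.67%) and 43 lower with the microneedle patch (7.41%). Both patches were called lower than MI in 21 members (0.894% of all genes tested) and neither in 141 (91.8%). These counts depended on the fit: with only the 2 groups compared they were 120 and 118, and with DESeq2 76 and 77, for the sutured and the microneedle patch. Leaving out MI replicate 1, 2, 4 or 5 took the count for the sutured patch to 28, 23, 23 or 28, and leaving out sutured patch replicate 2, 3, 4 or 6 took it to 28, 30, 25 or 22. The count for the microneedle patch became 20, 28, 20 or 24 when the same MI libraries were dropped, 16, 67 or 16 when replicate 2, 5 or 6 of its own group was, and 70 when Sham replicate 5 was. Without Sham replicates 4 and 5, an alternative chosen after seeing the data, the counts were 84 and 99. The share of all genes called in these alternatives is not given here, so the counts show only how far the calls moved.

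Library by library, 145 of the 213 members had every MI library above every Sham library (16% of all genes tested). Every sutured patch library lay below every MI library in 77 members (2.39%), and every microneedle patch library did in 56 (7.93%). All 12 patch libraries lay below all 6 MI libraries in 33 members (0.812%), and in 29 of these the MI libraries were also above all Sham libraries (0.371%). In 20 of the 217 members each of the 12 patch libraries was at most the MI mean divided by 1.5, and in 89 at least 1 patch library reached the MI mean. The shares of all genes with these last patterns were not worked out, so both counts only describe the members.

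Each of the 24 libraries was also left out in turn, the genes were chosen anew, and the left-out library was set against the means of the other groups. Those means still chose the genes, which favours a high share in advance, so the shares describe the lists and do not test them. The lists had 182 to 260 genes. Without MI replicate 6, the left-out library met both the Sham and the patch limits in 42.6% of the genes chosen without it, the lowest share of the 6 MI libraries, and MI replicate 4 met them in 67.3%, the highest. Among all genes open to the rule the shares in left-out MI libraries were 1.51% to 2.82%. The median ratio of the MI level to the higher patch mean was 172% to 178% in the libraries that chose the genes and 146% to 174% in the left-out MI libraries. The left-out library was lower than the others in each of the 6 cases.

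A left-out sutured patch library was at or below the limit in 37.3% (replicate 1) to 89.4% (replicate 3) of the genes chosen without it, beside 5.91% to 26.6% of all genes open to the rule. For the microneedle patch the shares ran from 38.5% (replicate 5) to 94.1% (replicate 2), beside 13.4% to 31.5%. For Sham, whose limit was the MI mean divided by 2, they ran from 58.7% (replicate 4) to 90.8% (replicate 6), beside 17.4% to 33.0%. In each of the 4 groups every left-out library had a higher share among the chosen genes than among all genes open to the rule. Of the 217 members, 105 (48.4%) were chosen in all 24 lists; their median ratio of MI to the higher patch mean was 1.92, against 1.62 in the other 112. Of these 112, 71 dropped out when some MI library was left out, 52 for a sutured patch library, 40 for a microneedle patch library and 31 for a Sham library; a gene can count under several groups.

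**Figure D2:**
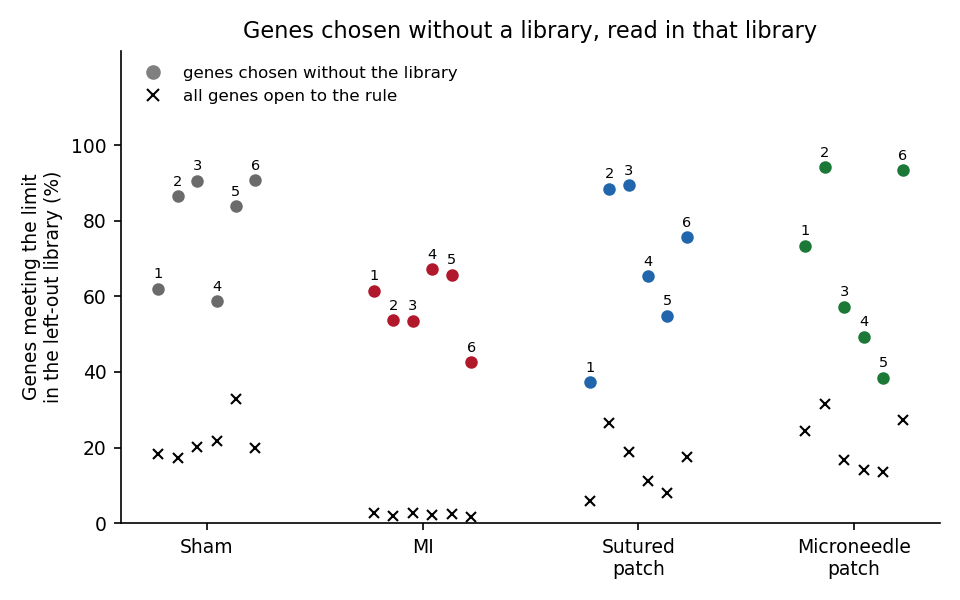
Share of genes (y axis, %) that met the limit in a library left out of the choice, by the group of that library (x axis). Dots are the genes chosen without the library, numbered by replicate, and crosses are all genes open to the rule; left-out MI libraries lie between 42.6% and 67.3%, their crosses between 1.51% and 2.82%.

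The 3 members just inside the limit on the patches had ratios of MI to the higher patch mean of 1.502, 1.503 and 1.506. The 3 genes just outside had 1.499, 1.495 and 1.495. In the member nearest the limit the means were 53.1 CPM in Sham, 174 CPM in MI, 95.5 CPM with the sutured and 116 CPM with the microneedle patch. In the nearest gene outside they were 4.68, 18.4, 12.3 and 7.74 CPM in the same order.

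The member with the most reads in MI was ENSRNOG00000061484. Its level in Sham libraries was 47.6, 140 and 199 CPM (lowest, median and highest), and in MI it was 692, 849 and 993 CPM. With the sutured patch it was 400, 533 and 620 CPM, and with the microneedle patch 452, 593 and 628 CPM. The MI libraries did not overlap with those of any other group, and the patch groups overlapped with each other and stayed above all Sham libraries. Between the microneedle and the sutured patch its log2 fold change was 0.17 (SE 0.22, edgeR adjusted p = 0.793).

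ENSRNOG00000026415 had the second most reads. Its level was 49.1, 110 and 188 CPM in Sham, 633, 824 and 983 CPM in MI, 405, 506 and 685 CPM with the sutured patch and 199.6, 522 and 699 CPM with the microneedle patch. Here sutured patch replicate 4 and microneedle patch replicate 5 lay above the lowest MI library, replicate 6, and the lowest patch value, in microneedle patch replicate 2, was just above the highest Sham value. Its log2 fold change between the patches was -0.04 (SE 0.26, edgeR adjusted p = 0.962), and the sign turned without sutured patch replicate 4 (0.05) or microneedle patch replicates 2 (0.11) or 6 (0.02).

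The 10 members with the most reads in MI were high in the whole MI group. Their means in MI were 368 to 851 CPM, and the highest MI library held 18.9% to 22.7% of their summed MI level, where an even split gives 16.7%. Every MI library was above every Sham library in 9 of these 10 and above every patch library in 3.

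The largest ratios of MI to the patches were of another kind. The member with the largest ratio of MI to the higher patch mean was ENSRNOG00000045686, with an MI mean of 4.20 CPM and a ratio of 8.62. Its MI mean rested on MI replicates 2 and 5, with 15.4 and 8.72 CPM (205 and 116 counts). The other 4 MI libraries had 0.224 to 0.358 CPM, or 3 to 5 counts each. Sham replicate 3 stood at 8.31 CPM and microneedle patch replicate 6 at 2.85 CPM. In the sutured patch libraries it had 0 to 4 counts. The groups overlapped: its level was high in 2 MI libraries, 1 Sham library and 1 microneedle patch library, and 0.384 CPM or less in the other 20.

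ENSRNOG00000045790, with the next largest ratio, had an MI mean of 3.65 CPM, 7.60 times the higher patch mean. It had 16.8 CPM in MI replicate 4 and 4.004 CPM in MI replicate 3, and 0.155 to 0.358 CPM in the other 4 MI libraries. All 18 libraries of the other groups were between 0.137 and 1.116 CPM. Neither of these 2 members passed the filter on low counts, so neither has a test.

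Of the 10 members with the largest such ratios, 8 had over 50% of their summed MI level in a single library, and in 0 of the 10 did all MI libraries lie above all patch libraries. Over all members, 13 had more than 50% of their MI level in 1 library and 3 had more than 80%; 6 of the 13 were highest in MI replicate 6. A rule on group medians in place of means chose 267 genes and shared 157 with the members, which is 72.4% of the members and 58.8% of the new list.

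**Figure D3:**
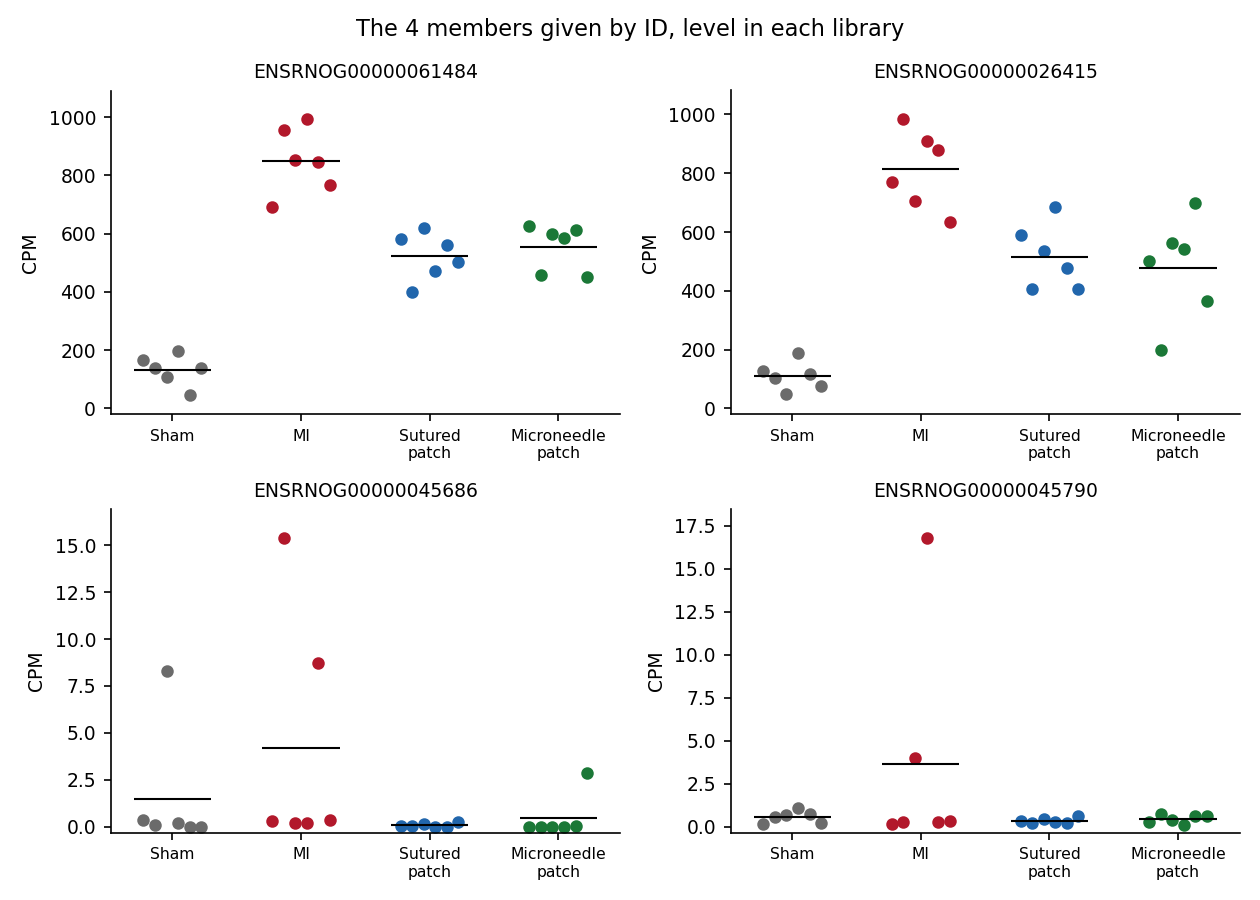
CPM (y axis, linear, its own scale in each panel) of the 4 members given by ID in each library, by group (x axis); the line is the group mean (n = 6). The upper pair is high in all MI libraries, from 692 and 633 CPM upward, and the lower pair owes its MI means of 4.20 and 3.65 CPM to 2 MI libraries each.

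The largest ratio of MI to Sham was 159.6. This member had 48 counts over the 6 Sham libraries, 0 to 1.84 CPM each, and 79.6, 127 and 238 CPM in MI. The sutured patch libraries had 23.8, 55.5 and 107 CPM and the microneedle patch libraries 54.2, 67.4 and 129 CPM. All libraries with an infarct were far above Sham, and both patch groups overlapped with MI. Its log2 fold change between the microneedle and the sutured patch was 0.52 (SE 0.38, edgeR adjusted p = 0.584).

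The choice of members set no limit between the microneedle and the sutured patch, although both means were bounded against MI. Genes that stayed high with only 1 of the patches were thereby left out, which can lower the counts that follow. In it, edgeR called 0 of the 213 tested members (adjusted p below 0.05) and 46 of all 14540 genes (0.316%). At an unadjusted p below 0.05 there were 12 members (5.63%; 13.7% of all genes tested), 11 higher and 1 lower with the microneedle patch. DESeq2 called 1 of the 215 members to which it gave an adjusted p (2.87% of all genes given one). The log2 fold changes of the members ran from -2.32 to 3.72 with a median of 0.03, beside -0.01 over all genes tested; 114 were above 0 (53.5%, beside 48.9% of all genes tested) and 99 below. By group means of CPM, which are scaled to library totals, 117 of the 217 members were lower with the microneedle patch (53.9%), beside 62.2% of all genes open to the rule. The side with more members thus differed between the measures. In both, the members were lower with the microneedle patch less often than the genes set beside them, which was not tested.

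The precision of this comparison varied between members. The standard error of the log2 fold change had a median of 0.45 and ran from 0.16 to 1.503. In 75 of the 213 members the log2 fold change with 2 standard errors on either side stayed within -1 and 1, that is, within 2-fold; for the other 138 the interval reached past 2-fold, so a difference of that size was not excluded. By group means, 22 members were at least 1.5 times higher with the microneedle patch and 17 with the sutured patch. No member had all libraries of one patch above all libraries of the other, in either direction (0.722% of all genes had the microneedle patch higher and 1.06% lower).

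The lowest adjusted p among the members was 0.142 (edgeR; log2 fold change 0.71, SE 0.22). This member had 12.3, 23.6 and 28.9 CPM with the sutured patch and 20.3, 30.1 and 48.3 CPM with the microneedle patch. In Sham it had 19.4, 23.99 and 32.0 CPM and in MI 45.9, 61.0 and 84.6 CPM. The 2 patch groups overlapped with each other and with Sham, and microneedle patch replicates 1 and 3 lay above the lowest MI library.

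The members' variation between libraries of the same group comes from the libraries whose means chose them. A limit on means can favour genes that vary between libraries or share a low or high library, so the values that follow describe the members, and their distance from other genes is not independent of the choice. The median coefficient of variation of the members was 22.2% in MI, 45.5% with the sutured and 54.1% with the microneedle patch. For all genes open to the rule the values were 13.3%, 21.3% and 21.3%. In Sham it was 65.6% for the members and 37.8% for all. Between pairs of members, the median Pearson correlation of log2(CPM + 0.5) over the 6 libraries of a group was 0.11 in MI, 0.21 in Sham, 0.35 with the sutured and 0.56 with the microneedle patch. Between pairs of all genes open to the rule it was 0.03, 0.02, 0.01 and 0.02. These are descriptions over 6 libraries that all genes share.

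The lowest value of a member in the microneedle patch group was in replicate 2 in 136 of the 217 members (62.7%, beside 30.7% of all genes open to the rule). The highest was in replicate 5 in 77 (35.5%, beside 27.3% of all genes open to the rule) and in replicate 4 in 60 (27.6%, beside 15.96%). With the sutured patch, replicate 2 was lowest in 116 members (53.5%, beside 31.8%) and replicate 1 highest in 99 (45.6%, beside 20.02%). Both of these low libraries also had the fewest genes with a count in their group, 16877 in microneedle patch replicate 2 (17081 to 17380 in the others) and 16359 in sutured patch replicate 2 (17155 to 17404). The part of that in the result was not tested.

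**Figure D4:**
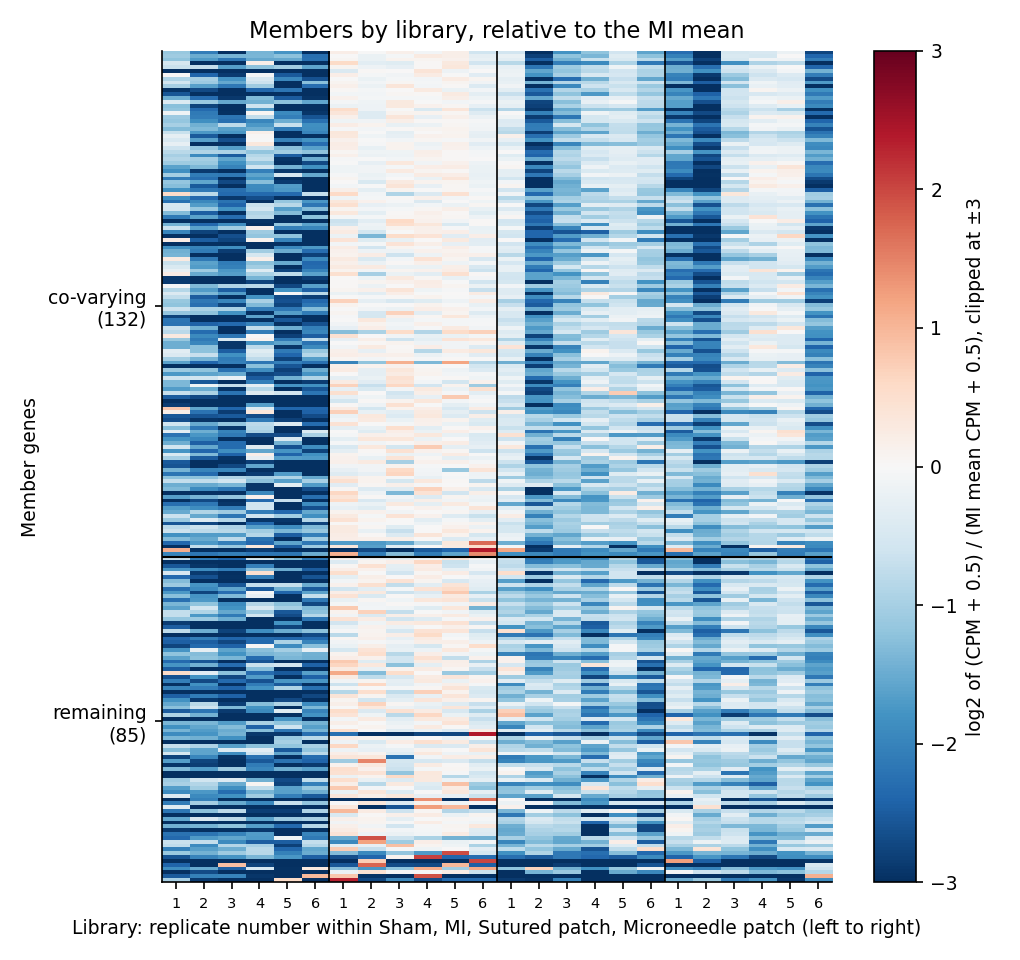
Level of each member (rows) in each library (columns, by group and replicate), as log2 of the level over the member's MI mean with 0.5 CPM added to both; red is above and blue below the MI mean. In the upper 132 rows the median is below the MI mean in every patch library. It is lowest in sutured patch replicate 2 and microneedle patch replicates 1, 2 and 6, at 14.8% to 28.8% of the MI mean. Sutured patch replicate 3 follows at 41.0%. In the lower 85 rows the blue is spread over all patch libraries.

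For each member the profile over the 12 patch libraries, centred within each patch group, was compared with the median profile of the other members. The correlation was at least 0.7 in 120 members (55.3%), below 0 in 28, and had a median of 0.75. Of all genes open to the rule 2736 (21.7%) reached 0.7 with the members' median profile and 14.4% were at -0.7 or lower, so many genes outside the list moved along the same line. Ward clustering of these profiles, a division made after seeing the data and given no test, split the members into 132 that mostly varied together and 85 others. Of the 132, 112 reached a correlation of 0.7 with the median profile of the other members, as did 8 of the 85. The 132 are called co-varying here. The co-varying and the remaining members had like medians in MI (14.2 and 15.6 CPM) and like ratios of MI to Sham (3.53 and 3.55).

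In the co-varying 132 the libraries of the same patch differed widely. The median member stood at 14.8% of its MI mean in microneedle patch replicate 2, 24.4% in replicate 6 and 28.8% in replicate 1. It stood at 62.3% in replicate 3, 76.1% in replicate 4 and 80.5% in replicate 5. With the sutured patch it stood at 18.8% in replicate 2 and at 75.9% in replicate 1, and replicates 3, 4, 5 and 6 had 41.0%, 58.4%, 63.4% and 52.5%. Sham libraries stood between 13.1% and 40.0%. Sutured patch replicate 2 and microneedle patch replicates 1, 2 and 6 were therefore in the Sham range, and the other 8 patch libraries were between the highest Sham value and the MI libraries, which had 90.1% to 105%.

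Sham libraries, which took no part in this division, also differed among themselves in the co-varying members: replicates 1 and 4 stood at 40.0% and 38.0% and the other 4 between 13.1% and 21.9%. Their median pairwise correlation in Sham was 0.38, beside 0.06 in the remaining members. In MI it was 0.16 in both sets. Sham replicate 4 was also among the libraries with the fewest genes with a count, 14079. Sham replicate 5 had fewer still, 13635, and stood at 13.2%, while Sham replicate 1 had 16356. The part of these numbers in the result was not tested.

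The member with the fourth most reads in MI shows the pattern of the co-varying set more strongly than the set's medians. In MI it had 530, 689 and 899.8 CPM (lowest, median and highest). With the microneedle patch it had 59.7 CPM in replicate 1, 23.2 CPM in replicate 2 and 41.0 CPM in replicate 6, but 295, 602 and 565 CPM in replicates 3, 4 and 5. With the sutured patch it had 42.4 CPM in replicate 2 and 182 to 651 CPM in the others. Sham libraries had 77.5, 192 and 349.5 CPM, so 4 patch libraries lay below all Sham libraries while 3 reached into the range of MI. Its group means were 350 ± 216 CPM with the sutured and 264 ± 267 CPM with the microneedle patch (SD, n = 6 each), and its log2 fold change between the patches was -0.36 (SE 0.61, edgeR adjusted p = 0.850). ENSRNOG00000026415 is in the same set and shows the pattern less. It had 500 and 365 CPM in microneedle patch replicates 1 and 6, above all its Sham libraries.

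Read at the median, the remaining 85 members were below the MI libraries in every patch library. The range of these medians over libraries was narrower than in the co-varying set, which the division by co-variation favours. Single members did not vary less throughout: the median coefficient of variation was 46.1% with the sutured patch, beside 45.5% in the co-varying set, 40.5% beside 64.2% with the microneedle patch, and 30.0% beside 18.9% in MI. The median member stood at 25.7% to 54.6% of its MI mean in the sutured patch libraries and at 36.5% to 58.7% in the microneedle patch libraries. All 12 patch libraries were thus above the Sham range of 12.9% to 21.9% and below the MI range of 80.5% to 106%. The libraries that were low here were partly others: sutured patch replicates 4 and 6, at 28.2% and 25.7%, were the lowest of their group, and microneedle patch replicate 1 was the highest of its group. Of the 50 members called lower with the sutured patch than in MI 36 were in this set and 14 in the co-varying set, and for the microneedle patch 23 and 20; these comparisons chose the members. Of the 12 members with an unadjusted p below 0.05 between the patches (edgeR), 12 were in this set. Such a p was found in 13.7% of all genes tested. The division used variation within the patch groups, which also enters these tests, so the splits of the calls are not read as a trait of the sets.

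**Figure D5:**
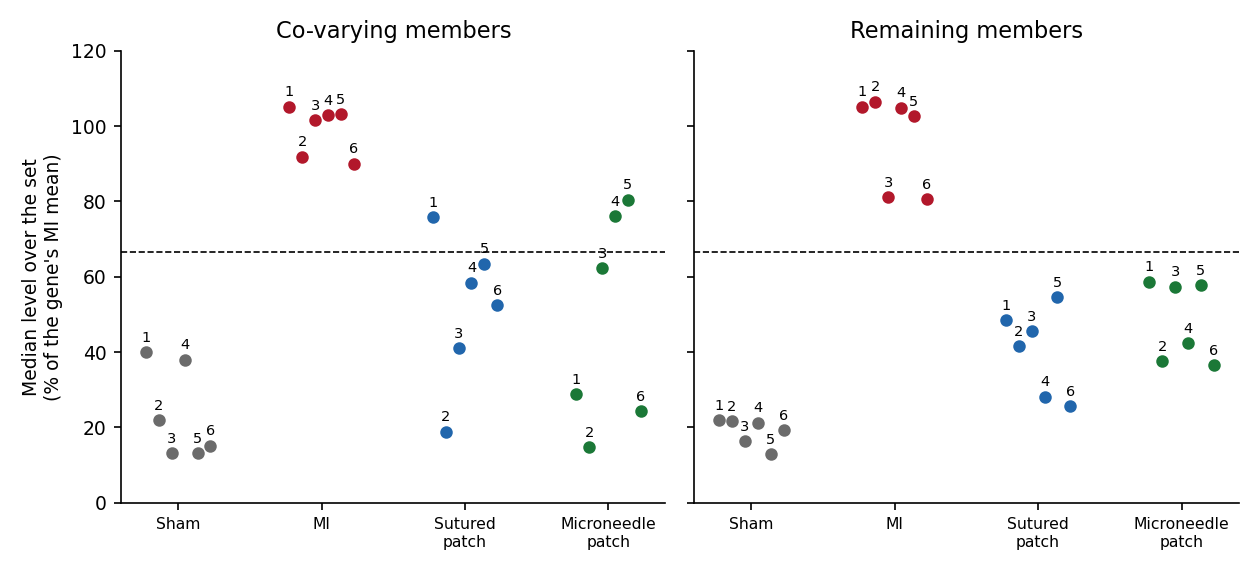
Median level over the 132 co-varying members (left) and the 85 remaining members (right) in each library, as % of the gene's MI mean (y axis), by group (x axis); numbers are replicates and the dashed line is the limit of the rule, the MI mean divided by 1.5. On the left the patch libraries spread from 14.8% to 80.5%, on the right from 25.7% to 58.7%.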

How the data were processed

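The authors deposited 1 table of whole-number read counts for 32883 rat Ensembl gene IDs in 24 libraries, not normalized and not pooled. HISAT2, featureCounts and the build rn6 are named per the submitters' processing notes; their versions, the annotation release, the strand setting and the multi-mapping rule were not given in the sources used here, so overlapping or near-identical genes and antisense partners may share counts. Columns were assigned by the code in each sample title; 0 columns stayed unassigned. Of the IDs, 0 matched the RefSeq gene table of the assembly GRCr8, so the gene lists, marker lists and promoter motifs planned could not be applied and no sequence is printed.

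The members, the lists and the division into sets were chosen with earlier results of these data known. CPM used column totals. All 24 libraries entered a single edgeR 4.0.16 fit (R 4.3.3): filterByExpr (minimum count 10), TMM, 4 group means, 20 residual degrees of freedom, robust quasi-likelihood F test, adjusted by Benjamini-Hochberg over 14540 genes. Standard errors were derived from the log2 fold change and its F statistic (size over root of F). Alternatives were DESeq2 1.42.0, its size factors, no filter, fits of 2 groups alone, the replicate number as a block, and each library left out. The IDs printed are the 2 members with the most reads in MI and the 2 with the largest fall in both patch groups. Which of the rule's parts gave the printed IDs was settled after the data were seen, since without symbols at most 2 in each direction could be printed. The members described by rank only lead another part of that rule, except the fourth by reads and the lowest p between patches, which were chosen after their values were seen. Figures used matplotlib 3.10.9.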

Additional observations from a re-analysis of the deposited data

Results flagged for a closer look

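Among 32 sets of 6 values checked (the summed level and 7 single members in each of the 4 groups), 3 had 1 library far from the rest. In these the gap to its nearest neighbour exceeded the limit of Dixon's test for groups of 6. Chance alone gives about 1 in 20 for values that were not picked. The members were picked by their levels in these same libraries, so that rate does not apply here. ENSRNOG00000045686, the member with the largest ratio of MI to the higher patch mean, stood out in Sham. There replicate 3 had 8.31 CPM and the others at most 0.384 CPM (gap 0.954 of the range). It stood out again with the microneedle patch, where replicate 6 had 2.85 CPM and the others at most 0.0736 CPM (gap 0.974). ENSRNOG00000045790, with the next largest ratio, stood out in MI, where replicate 4 had 16.8 CPM and the next library 4.004 CPM (gap 0.769).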

How the results depend on the processing

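The number of genes that met the rule was 230 with TMM scaling, 231 with DESeq2 size factors, 267 with medians and 182 to 260 with 1 library left out; without Sham replicates 4 and 5 it was 230. Members called in MI against Sham numbered 163 to 189 with 1 library left out, against Sham 64 to 86 with the sutured and 73 to 100 with the microneedle patch, and between the patches 0 to 0. For the patches against MI the counts moved most: 22 to 68 with the sutured and 16 to 70 with the microneedle patch when 1 library was left out, 120 and 118 in fits of the 2 groups alone, 76 and 77 with DESeq2, and 84 and 99 without Sham replicates 4 and 5. DESeq2 called 1 member between the patches, where edgeR called 0. For the comparisons with MI or Sham, the share of all genes called in these alternatives is not given here. Their counts show only how far the calls moved. The cause of these moves was not tested. Between the patches, ENSRNOG00000026415 had log2 fold changes from -0.16 to 0.11 with 1 library left out, was above 0 when sutured patch replicate 4 (0.05) or microneedle patch replicate 2 (0.11) or 6 (0.02) was dropped, and passed the test in none of these fits. Choosing the co-varying members by a correlation of at least 0.7 gave 120 genes, of which 112 were among the 132.

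The replicate numbers of the labels were not taken as a pairing, since the labels do not call them one. Libraries of the same number in different groups deviated together with a correlation over 0.1 in 19 of 36 pairs (range -0.14 to 0.44). Of the 24 libraries, 9 correlated best with a library of their own number. Pairs of different number are not given beside these values, so they do not decide whether the numbers mark a pairing or a batch. With the replicate number as a block, 188 members were called in MI against Sham, 55 and 83 with the sutured and the microneedle patch against MI, 79 and 82 against Sham, and 0 between the patches. The share of all genes called in that fit is not given here either. Low depth limits the members below 10 CPM most, and in Sham more than elsewhere.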
